A study of Mus musculus with 3 samples.

Results

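The 8 genes described here take up, break down or sense serotonin, noradrenaline, adrenaline and histamine. They are *Slc6a2* and *Slc6a4* (uptake), *Maoa* and *Maob* (breakdown), and *Adrb1*, *Hrh1*, *Htr1b* and *Htr2b* (receptors). They were taken by gene symbol from a table of 24346 rows, and all 8 had a row. The values come from bulk RNA-seq of endothelial cells (ECs) from the lungs of male wild type mice of the C57BL/6J strain, 6 to 8 weeks old, for which 1 condition is represented by 3 libraries, named S38, S44 and S52. A VE-cadherin antibody was injected into the blood before the lungs were digested, and the freshly isolated cells were sorted with antibodies against CD31, CD45 and podoplanin. For its non-lymphatic kidney ECs the study gives a gate positive for CD31 and negative for CD45 and podoplanin. Where it compared them with non-endothelial kidney cells, the gate was also positive for VE-cadherin. Other organs and ages are outside these values, and with 1 condition there was no group to compare with. The sources used here do not say whether each library came from 1 mouse or from pooled mice.

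Amines released by nerves, platelets, mast cells and endocrine cells reach the lung with the venous blood. The pulmonary capillary bed is known for removing serotonin and noradrenaline from that blood while letting adrenaline, dopamine and histamine pass largely unchanged. Sodium-dependent transporters of the Slc6 family carry the amine into the cell, monoamine oxidases at the outer mitochondrial membrane deaminate it, and G protein-coupled receptors at the cell surface sense the amine that remains outside.

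In the sorted fraction of adult lung ECs both transporters and both oxidases were detected, together with 2 of the 4 receptors. Markers of other cells were detected in this fraction too, as given below. Detection here means a mean of at least 1 FPKM, a level in which the number of fragments is divided by gene length and by library size. The 6 detected genes of 8 stand beside 48.3% of all rows of the table. The median level over the 8 genes was 10.5 FPKM, and that over all rows was 0.784 FPKM. By mean level the order was *Slc6a2*, *Maoa*, *Slc6a4*, *Maob*, *Adrb1*, *Htr2b*, *Hrh1* and *Htr1b*. Among the 7 pairs of neighbours in that order, *Adrb1* above *Htr2b* and *Htr2b* above *Hrh1* were the only pairs whose ranges over the 3 libraries did not overlap. The gap of the former pair was narrow, since the lowest level of *Adrb1* was 9.26 FPKM and the highest of *Htr2b* was 9.08 FPKM. The other 5 pairs of neighbours did not differ beyond their spread.

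**Figure D1:**
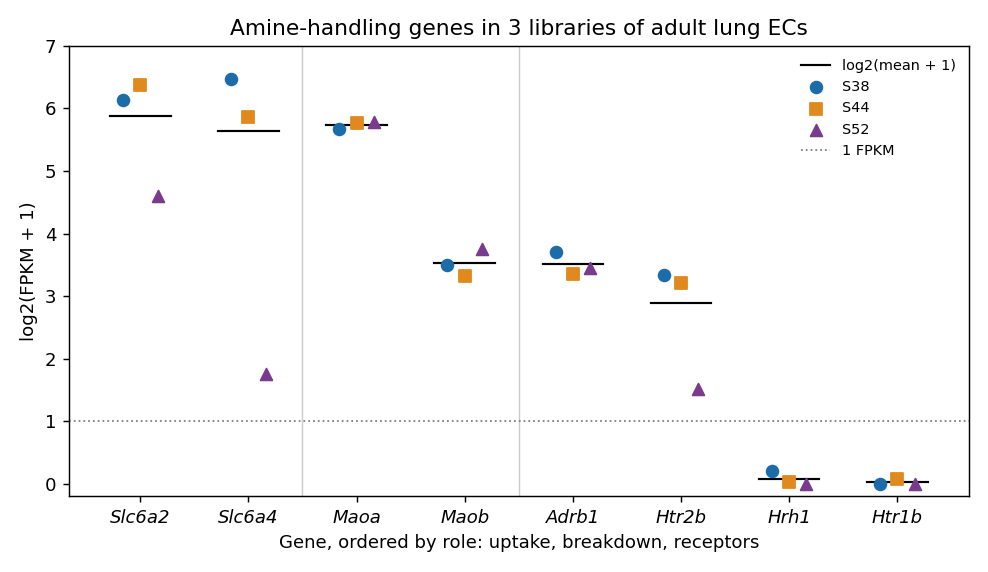
Level of each of the 8 genes as log2(FPKM + 1), by library (S38 circles, S44 squares, S52 triangles), with a bar at the log2 of the mean of the 3 libraries plus 1 and a dotted line at 1 FPKM. *Slc6a2*, *Slc6a4* and *Htr2b* were lower in S52 than in S38 and S44, at 23.2, 2.38 and 1.86 FPKM, while *Maoa* stayed between 50.1 and 54.1 FPKM.

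The depth behind these values was estimated from the steps between low FPKM values, at 37300000 (S38), 38900000 (S44) and 34100000 (S52) fragments. All 10 endothelial marker genes were detected, and their summed level was 6369 FPKM (S38), 7058 FPKM (S44) and 6291 FPKM (S52). Library S52 stood apart in markers of other cells. Summed over 12 platelet genes, all detected, the level was 2535 FPKM (S38), 2050 FPKM (S44) and 70.4 FPKM (S52). Alveolar type 2 genes (5 of 5 detected) summed to 3778, 3164 and 755 FPKM in the same order of libraries. Leukocyte genes (6 of 8 detected), where *Lyz2* made up most of the sum and is also made by alveolar type 2 cells, summed to 1094, 838 and 186 FPKM. Airway genes (4 of 5 detected) summed to 2767, 2303 and 401 FPKM. Mural genes (10 of 10 detected) did not follow that order, with sums of 262, 160 and 266 FPKM, and fibroblast genes (7 of 7 detected) summed to 98.2, 80.4 and 63.7 FPKM. Among ECs, the general capillary list (5 of 5 detected) summed to 2034, 2325 and 2516 FPKM, the arterial list (8 of 9) to 528, 588 and 632 FPKM and the venous list (6 of 7) to 436, 474 and 366 FPKM. In bulk samples, fewer cells of a type and less RNA per cell cannot be told apart.

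*Slc6a4* encodes the serotonin transporter, which also loads platelets with serotonin from plasma. It lies at chr11:76998603-77032340 on the plus strand of mm10 (GRCm38), and its longest annotated transcript has 15 exons. Its level was 87.3 FPKM (S38), 57.3 FPKM (S44) and 2.38 FPKM (S52), with a mean of 49.0 ± 43.0 FPKM (SD, n = 3). S38 and S44 were within 1.52-fold of each other, whereas S38 was 36.6-fold and S44 24.1-fold above S52. The value in S52 still rested on an estimated 213 fragments, and those in S38 and S44 on 8676 and 5877. Among the 11770 detected rows of the table, 72, *Slc6a4* included, had a difference of log2(FPKM + 1) between S52 and the mean of S38 and S44 at or below the -4.41 of *Slc6a4*, and the median of these rows was -0.07. The summed platelet genes were 36-fold higher in S38 and 29.1-fold higher in S44 than in S52. The single genes of that list ranged from 7.22-fold to 87.4-fold for S38 and from 5.40-fold to 75.5-fold for S44, so *Slc6a4* lay inside the range of the platelet list in both. The part of platelet RNA in the level of *Slc6a4* was not tested.

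The genes with the pattern closest to *Slc6a4* over the 3 libraries, by the root mean square difference of log2(FPKM + 1), were *Prkar2b* at 0.22, *Tmem40* at 0.34 and *Itgb3* at 0.35. *Prkar2b*, a regulatory subunit of protein kinase A, was at 74.2 (S38), 48.8 (S44) and 1.97 FPKM (S52). *Tmem40* was at 68.1 (S38), 55.2 (S44) and 1.45 FPKM (S52). *Itgb3*, which encodes the beta chain of the platelet fibrinogen receptor and is 1 of the 12 platelet genes, was at 65.5, 50.5 and 3.48 FPKM. The likeness rests on 3 libraries and is given as a description.

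*Slc6a2* encodes the noradrenaline transporter, the carrier that also returns noradrenaline to sympathetic nerve endings. It lies at chr8:92960079-93001667 on the plus strand, with 14 exons in its longest annotated transcript. Its level was 69.4 FPKM (S38), 81.7 FPKM (S44) and 23.2 FPKM (S52), with a mean of 58.1 ± 30.9 FPKM (SD, n = 3), the highest mean of the 8 genes. S52 was again the low library, but by less than for *Slc6a4*, since S38 was 3.0-fold and S44 3.53-fold above it. The value in S52 rested on an estimated 4751 fragments. These ratios lay below those of every platelet gene in the list for S38 and for S44, and the part of platelet RNA in the level of *Slc6a2* was not tested. Neurons and neuroendocrine cells, the other known site of this transporter, were represented by 9 genes, of which 2 were detected (*Uchl1* and *Calca*), with sums of 14.3, 8.82 and 7.36 FPKM in S38, S44 and S52. *Chgb* was listed at 0 in all 3 libraries. Genes of aerocytes, the capillary ECs that line the gas exchange surface, were also lower in S52, with sums of 1747, 1853 and 1143 FPKM over 7 genes, all detected. The single aerocyte genes were 1.19-fold to 2.73-fold higher in S38 and 1.31-fold to 2.33-fold higher in S44 than in S52, below the ratios of *Slc6a2*. The venous list summed to 436, 474 and 366 FPKM. Its single genes ranged from 0.536-fold to 2.24-fold for S38 and from 0.214-fold to 2.64-fold for S44. Both lowest ratios were those of a venous gene below the threshold. The part of nerve, aerocyte and venous EC RNA in the level of *Slc6a2* was not tested either.

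The genes closest to *Slc6a2* by the same measure were *Dap* at 0.20, *H2-T24* at 0.21 and *Mmd* at 0.23. *Dap* was at 69.4 (S38), 65.9 (S44) and 26.2 FPKM (S52). None of these 3 genes is in the marker lists.

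Between the transporters the order changed with the library. *Slc6a4* was the higher in S38, and *Slc6a2* was the higher in S44 and S52. The within-library difference of log2(FPKM + 1), *Slc6a2* minus *Slc6a4*, came to -0.33 (S38), 0.50 (S44) and 2.84 (S52), with a mean of 1.0 ± 1.64 (SD, n = 3; exact sign-flip permutation test, two-sided, p = 0.5). With 3 libraries this exact permutation test cannot go below p = 0.25. Without S52 the mean difference was 0.089.

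*Maoa* encodes monoamine oxidase A, which prefers serotonin and noradrenaline as substrates. It lies on the X chromosome at chrX:16619698-16687818, next to *Maob*, which is transcribed from the opposite strand at chrX:16709282-16817366. *Maoa* was at 50.1 FPKM (S38), 53.6 FPKM (S44) and 54.1 FPKM (S52), with a mean of 52.6 ± 2.16 FPKM (SD, n = 3). It had the smallest spread of the 8 genes relative to its mean, a coefficient of variation of 4.12%. *Maob* encodes monoamine oxidase B, which prefers phenylethylamine and is also the oxidase of platelets. *Maob* was at 10.2 FPKM (S38), 8.98 FPKM (S44) and 12.6 FPKM (S52), with a mean of 10.6 ± 1.81 FPKM (SD, n = 3). S52 was the highest library and S44 the lowest, and the part of platelet RNA in the level of *Maob* was not tested. The 2 oxidases kept their order in every library. The difference of log2(FPKM + 1), *Maoa* minus *Maob*, was 2.18, 2.45 and 2.02 in S38, S44 and S52, with a mean of 2.22 ± 0.22 (SD, n = 3; exact sign-flip permutation test, two-sided, p = 0.25, the smallest it allows), and the ratio of their mean levels was 4.96.

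By mean level the receptors were lower than both transporters and *Maoa*. *Adrb1* (chr19:56722199-56733113, plus strand) encodes the beta-1 adrenergic receptor, which couples to Gs and is best known from the heart. Its level was 12.1 FPKM (S38), 9.26 FPKM (S44) and 9.97 FPKM (S52), with a mean of 10.4 ± 1.45 FPKM (SD, n = 3), and the libraries lay within 1.30-fold of each other. Atrial-like muscle lines the pulmonary veins of mice, and 6 of 7 cardiomyocyte genes were detected, with sums of 85.0, 50.2 and 47.3 FPKM. The highest means of that list were those of *Actc1*, with 18.6 (S38), 13.4 (S44) and 30.6 FPKM (S52), and *Myl4*, with 17.7, 15.7 and 13.8 FPKM. *Myh6* was below the threshold, with 0.64, 0.078 and 0 FPKM. In 4 genes of the list S52 was over 2-fold below both other libraries, whereas *Actc1* was highest in S52. The part of cardiomyocyte RNA in the level of *Adrb1* was not tested.

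*Htr2b* (chr1:86099026-86111970, minus strand) encodes a Gq-coupled serotonin receptor known from heart valves and from models of pulmonary hypertension. Its level was 9.08 FPKM (S38), 8.20 FPKM (S44) and 1.86 FPKM (S52), with a mean of 6.38 ± 3.94 FPKM (SD, n = 3). S38 was 4.89-fold and S44 4.42-fold above S52, where the value rested on an estimated 121 fragments. These ratios stand beside 5.01-fold and 4.19-fold for the summed alveolar type 2 genes and 36-fold and 29.1-fold for the summed platelet genes. The summed airway genes gave 6.91-fold and 5.75-fold. Single alveolar type 2 genes ranged from 3.80-fold to 6.74-fold for S38 and from 2.70-fold to 4.35-fold for S44. Single airway genes ranged from 1.11-fold to 7.06-fold and from 0.511-fold to 5.85-fold. Both lowest ratios were those of the airway gene below the threshold, at 0.037 (S38), 0.017 (S44) and 0.034 FPKM (S52). The summed leukocyte genes gave 5.88-fold and 4.50-fold, with the genes above 0 in S52 ranging from 1.02-fold to 54.1-fold for S38. Leukocytes carry CD45, which the gate given for kidney ECs excludes. *Ptprc*, the gene of CD45, was still detected, with 4.30 (S38), 2.06 (S44) and 0.434 FPKM (S52). The part of other cells in the level of *Htr2b* was not tested.

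*Hrh1* and *Htr1b* were near the limit of detection. *Hrh1* (chr6:114397936-114483296, plus strand) encodes the histamine H1 receptor, through which histamine opens the junctions of venules. It was at 0.145 FPKM in S38 and 0.021 FPKM in S44 and was listed at 0 in S52, or an estimated 20, 3 and 0 fragments. *Htr1b* (chr9:81628291-81633828, minus strand) encodes a Gi-coupled serotonin receptor known from arteries and nerve endings. It was at 0.051 FPKM in S44, an estimated 9 fragments, and was listed at 0 in S38 and S52. A count of 0 allows up to 3 fragments, which is 0.024 FPKM for *Hrh1* in S52 and 0.018 and 0.019 FPKM for *Htr1b* in S38 and S52, counting error only. The exons of *Htr1b* overlap the opposite-strand gene *D430036J16Rik*, and since the libraries carry no strand, reads of these genes cannot be told apart. No other gene of the 8 shares exonic sequence with an annotated neighbour.

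Over the 6 detected genes, 3 (*Slc6a2*, *Slc6a4* and *Htr2b*) spanned more than 2-fold between their libraries, beside 20.1% of all detected rows. In these 3 genes S52 was over 2-fold below both other libraries, which held for 8.04% of detected rows. Without S52 none of the 6 genes had a ratio over 2. As deposited, *Maoa*, *Maob* and *Adrb1* stayed within 1.40-fold across all 3 libraries. The FPKM values of all rows summed to 1153890 (S38), 1603600 (S44) and 1419350 (S52), and these ratios were not rescaled for that.

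**Figure D2:**
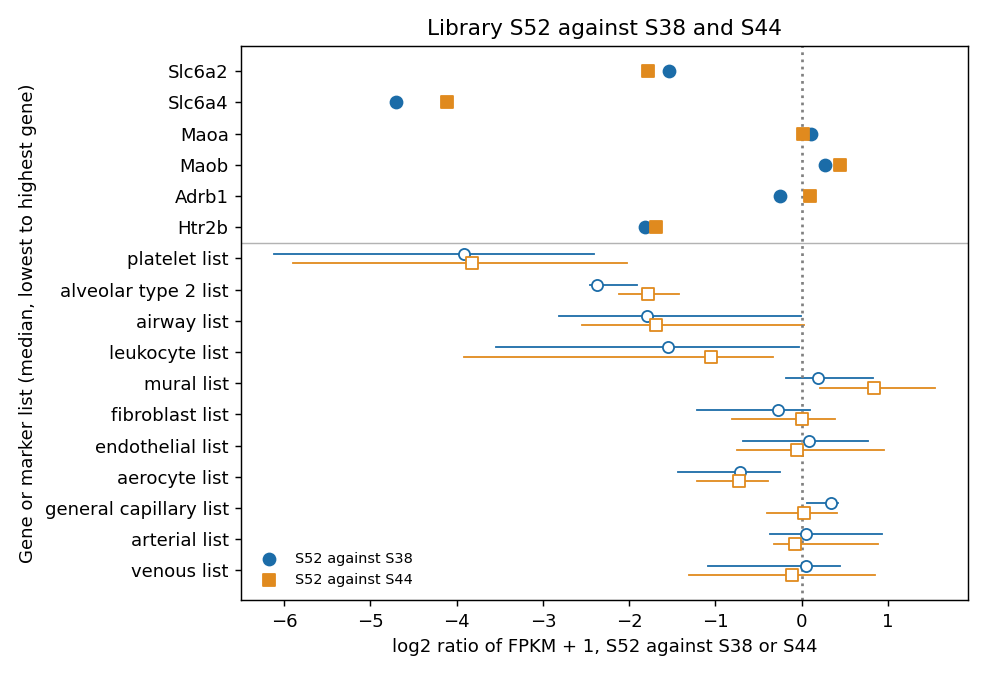
Log2 ratio of FPKM + 1 in S52 against S38 (circles) and against S44 (squares) for the 6 detected genes (filled), and for marker lists the median (open) with a line from the lowest to the highest gene. *Slc6a4* lies among the platelet genes, whose medians were -3.91 and -3.82, *Slc6a2* and *Htr2b* were at -1.54 and -1.82 against S38, and *Maoa*, *Maob* and *Adrb1* lie near 0 with the endothelial list.

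The windows around the start sites are shown for *Slc6a4* and *Htr2b*, which shared the low value in S52, and for *Maoa*, which held its level. RefSeq sequences on GRCm38.p6 were found for 6 of the 8 genes, and not for *Slc6a2* and *Maob*. Each window runs from 250 bases before to 50 bases after the start, 5′ to 3′ on the strand of the gene, and capitals mark matches to the GC box (GGGCGG on either strand), a site type bound by Sp and Kruppel-like factors. *Slc6a4* is at chr11:76998347-76998646 (plus strand), *Htr2b* at chr1:86111931-86112230 (minus strand) and *Maoa* at chrX:16619448-16619747 (plus strand).
Slc6a4: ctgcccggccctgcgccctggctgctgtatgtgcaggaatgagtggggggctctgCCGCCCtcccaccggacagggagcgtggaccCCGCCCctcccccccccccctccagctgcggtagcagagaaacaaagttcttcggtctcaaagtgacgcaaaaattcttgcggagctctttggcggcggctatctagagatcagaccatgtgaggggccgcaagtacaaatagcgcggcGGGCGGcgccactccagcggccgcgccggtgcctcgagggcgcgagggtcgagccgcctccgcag
Htr2b: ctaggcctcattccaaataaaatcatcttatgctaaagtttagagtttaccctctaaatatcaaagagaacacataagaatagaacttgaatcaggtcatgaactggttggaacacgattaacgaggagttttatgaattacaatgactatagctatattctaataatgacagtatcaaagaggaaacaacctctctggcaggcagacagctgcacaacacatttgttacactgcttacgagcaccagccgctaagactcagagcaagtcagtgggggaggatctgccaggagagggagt
Maoa: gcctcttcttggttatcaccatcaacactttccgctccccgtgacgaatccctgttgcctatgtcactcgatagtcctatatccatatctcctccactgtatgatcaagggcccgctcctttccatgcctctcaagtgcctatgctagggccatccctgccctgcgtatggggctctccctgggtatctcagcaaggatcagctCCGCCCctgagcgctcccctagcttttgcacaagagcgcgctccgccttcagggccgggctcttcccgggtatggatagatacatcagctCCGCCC

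The *Slc6a4* window held 3 GC boxes, of which the nearest began 15 bases before the start, and the *Maoa* window held 2, while 35.7% of 32851 windows of this length held at least 1. The *Htr2b* window held none, and its GC content was 41.0%, against 67.7% for *Slc6a4*, 57.7% for *Maoa* and a median of 52.7% over all windows. The TATA box (TATAAA) was matched on neither strand in these 3 windows, and in 13.6% of all windows. CCAAT was matched in none of the 3 and in 37.4% of all. An ETS core (GGAAGT) was matched in none of the 3 and in 23.8% of all. A GATA site (AGATAA) was matched in none of the 3 and in 11.2% of all. A match is a string of letters, not a bound site.

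The rest of the amine pathway was followed through 71 further genes grouped by role, of which 28 were detected and 17 were listed at 0 in all 3 libraries. Among all rows, 48.3% were detected and 29.5% were listed at 0 in all 3.

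**Figure D3:**
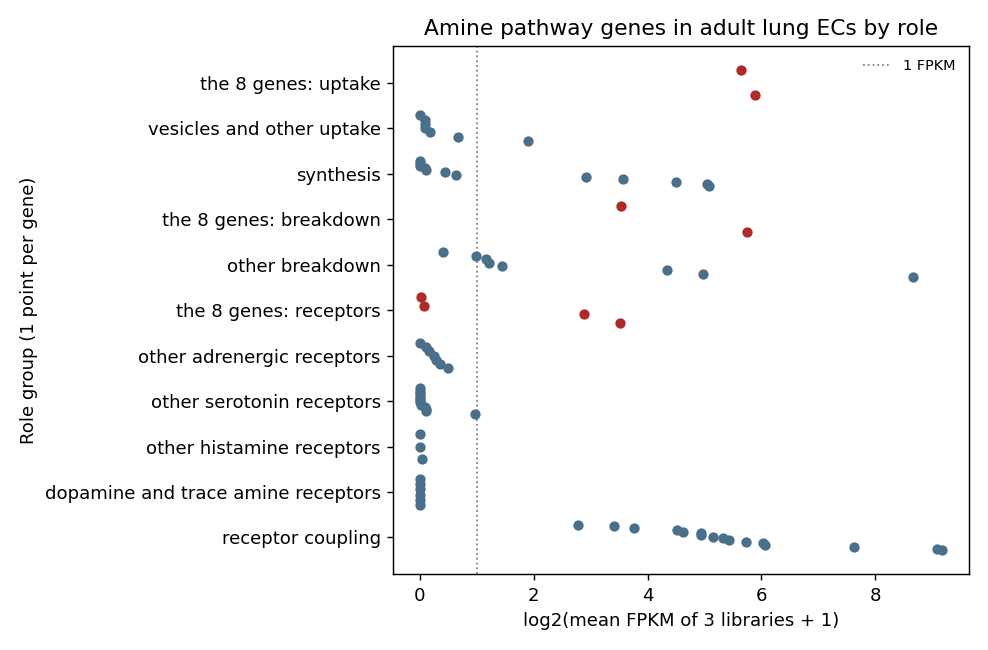
Mean level of each amine pathway gene over the 3 libraries as log2(FPKM + 1), 1 point per gene, by role, with the 8 genes in red and the other 71 in blue and a dotted line at 1 FPKM. All 16 genes of the receptor coupling group, which also holds receptor kinases and arrestins, lie above the line. Of the 32 receptor genes plotted, *Adrb1* and *Htr2b* do.

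Of the 12 genes of synthesis, 5 were detected. The hydroxylases of serotonin and catecholamine synthesis were at 0 or low, with *Tph1* and *Tph2* (serotonin) and *Dbh* (noradrenaline) listed at 0 in all 3 libraries and *Th*, the rate-limiting enzyme of catecholamine synthesis, at 0 (S38), 0 (S44) and 0.257 FPKM (S52). The detected genes included 4 that make or recycle tetrahydrobiopterin, the cofactor that tryptophan and tyrosine hydroxylases share with nitric oxide synthases. *Qdpr* was at 32.9 ± 7.09, *Spr* at 32.0 ± 3.67, *Gch1* at 21.6 ± 4.52 and *Pts* at 10.9 ± 0.846 FPKM (SD, n = 3 for each). *Pcbd1*, which recycles the cofactor for the hydroxylases, was not detected, at 0.079 (S38), 0.117 (S44) and 0 FPKM (S52). The fifth was *Hdc*, which makes histamine, at 9.29 FPKM (S38), 8.04 FPKM (S44) and 2.46 FPKM (S52). S52 was again the low library. Of 8 mast cell and basophil genes only *Mcpt4* was detected, at 3.35, 2.54 and 0 FPKM, and *Tpsab1* and *Ms4a2* were listed at 0 in all 3 libraries. Mast cells and basophils carry CD45 as well, but *Ptprc*, the gene of CD45, was detected, with a mean of 2.26 FPKM. The part of other cells in the level of *Hdc* was not tested.

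Among 7 other carriers, *Slc18a2*, the vesicular transporter that fills storage granules of platelets, mast cells and neurons, was the only one detected, at 4.43 FPKM (S38), 3.0 FPKM (S44) and 0.814 FPKM (S52). S52 was the low library here too, as for *Slc6a2*, *Slc6a4*, *Htr2b* and *Hdc*. S38 was 5.44-fold and S44 3.68-fold above it, below the lowest platelet gene at 7.22-fold and 5.40-fold. The summed alveolar type 2 genes gave 5.01-fold and 4.19-fold, the leukocyte genes 5.88-fold and 4.50-fold and the airway genes 6.91-fold and 5.75-fold. The part of platelet and other RNA in the level of *Slc18a2* was not tested. The carriers of low affinity and high capacity *Slc22a2*, *Slc22a3* and *Slc29a4* had means between 0.004 and 0.605 FPKM.

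Of 8 other genes of breakdown, 6 were detected. *Aldh2*, the mitochondrial aldehyde dehydrogenase that can oxidise the aldehydes left by monoamine oxidase, was at 405 ± 25.7 FPKM (SD, n = 3), a higher level than any of the 8 genes. *Aldh3a2*, another aldehyde dehydrogenase, was at 30.6 ± 2.64 FPKM (SD, n = 3). *Sult1a1*, a sulfotransferase for phenols, was at 25.1 (S38), 20.4 (S44) and 12.2 FPKM (S52). *Hnmt*, which methylates histamine, was far lower, at 2.81, 1.46 and 0.953 FPKM, and *Aoc1*, which encodes diamine oxidase, was not detected, at 0.565, 0.407 and 0 FPKM.

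Of the 32 receptor genes reported here, with the 4 described above among them, *Adrb1* and *Htr2b* were detected. A further 7 adrenergic receptors were below the threshold, and *Adra2c* was listed at 0 in all 3 libraries. Of the 12 other serotonin receptors *Htr2a* came closest, at 0.533 (S38), 1.07 (S44) and 1.31 FPKM (S52), while *Htr1a*, *Htr1d*, *Htr4*, *Htr5a*, *Htr5b* and *Htr6* were listed at 0 in all 3. *Hrh4*, *Taar1* and the 5 dopamine receptors were listed at 0 in every library as well.

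All 16 genes of the receptor coupling group, which also holds receptor kinases and arrestins, were detected. *Gnas*, the Gs alpha subunit through which beta receptors act, was at 577 ± 47.0 FPKM, and *Gnai2* was at 543 ± 66.3 FPKM (SD, n = 3 for both). *Adcy4*, an adenylyl cyclase, was at 197 ± 18.0 FPKM, and the arrestin gene *Arrb1* at 66.0 ± 13.2 FPKM (SD, n = 3 for both).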

How the data were processed

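Libraries of poly-A RNA were read from both ends (51 bp each) with no strand information. For each gene symbol the table deposited by the authors holds FPKM values, on mm10. Per the labels, the submitters' processing notes list bcl2fastq 2.17, FastQC 0.11.5, Trimmomatic 0.36, TopHat2 2.1.0 and Cufflinks 2.2.1, while the study's methods name STAR, HTSeq and edgeR for counts. The annotation and any batch correction of the FPKM values are not given in the sources used here. FPKM divides by gene length and by library size, so a few abundant short genes can shift all others.

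The values were used as deposited, with Python 3.11.15 and pandas 2.3.3. Differences used log2(FPKM + 1), which understates changes of low genes. All per-sample columns were used. Within-library differences of 2 genes were tested by exact sign-flip permutation, and FPKM values enter no count model. Depth estimates used 7077 genes with 1 transcript of 800 to 4000 bp in GENCODE M21 (GRCm38), searching for the value of 1 fragment at which low levels become whole counts. Of the 274, 371 and 189 low values in S38, S44 and S52, 78.8%, 77.6% and 75.1% lay within 0.15 of a whole number. On data simulated for S38, S44 and S52 with the 7077 genes, known depths were recovered within 0.033%, 0.041% and 0.10%. The simulation drew whole counts by the same formula as the search, so these errors do not measure those of the real depths. Fragments per gene used the longest basic transcript and are approximate.

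The genes, lists and markers were chosen with earlier results of these data known. Named are the 8 genes, at most the 4 highest of each role group and the genes listed at 0 in all libraries, the 3 genes most alike to the highest of the 8 and to the detected one with the largest ratio between libraries, and at most 2 genes of each marker list. *Th*, *Hdc*, *Pcbd1*, *Hnmt*, *Aoc1*, *Lyz2*, *Ptprc*, *Myh6*, the low-affinity carriers and the markers at 0 were named after their values were seen. Some listed genes are not reported here and do not enter the counts. *Grk2* is listed as *Adrbk1*, and *Ly6g* had no row. Sequences are those of RefSeq. The libraries were left out in turn, and scaling, thresholds and pseudocounts were varied. Each p-value tests whether the mean within-library difference of 2 genes is 0, and it refers to these libraries only.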

Additional observations from a re-analysis of the deposited data

How the results depend on the processing

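Of 40 recomputed values for the counts, the median and the differences between paired genes, 38 kept their direction and stayed within 1.5 times the count or within 1 SD of the median. Rescaling each library to a sum of 1000000 FPKM moved the median over the 8 genes to 7.76 FPKM. The number of genes over 2-fold between libraries ranged from 0 to 3 with 1 library left out, and it was 0 without S52. The 6 detected genes stayed 6 at thresholds of 0.5 and 3 FPKM, with the threshold required in every library, and with any library left out. The mean difference of *Slc6a2* minus *Slc6a4* ranged from 0.089 (without S52) to 1.67 (without S38), and that of *Maoa* minus *Maob* from 2.1 to 2.32. Alternatives for the level of each gene were added after seeing the data, and 3 of 40 moved by more than 1 SD, those of *Maoa*, *Maob* and *Adrb1* on rescaling to the same sum. No paired analysis was possible because 1 group leaves no samples of another group to pair with, and the differences between genes are taken within a library. Among the 8 genes, depth limits *Hrh1* and *Htr1b*, and with 3 libraries the exact sign-flip test cannot pass 0.05.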
